A study of Canis lupus familiaris with 4 samples.

Results

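The genes described here are 10 genes of the unfolded protein response and of protein folding in the endoplasmic reticulum (ER), measured in canine CD8+ T cells cultured with lymphoma exosomes or with PBS. They were chosen by name: XBP1, ATF6, ERN1, EIF2AK3, HERPUD1, PDIA4, HYOU1, CALR, CANX and SEL1L. All 10 were found, among 11691 genes present in both deposited tables, and none was lost to a filter. Messenger RNA libraries came from blood mononuclear cells of 2 healthy mixed-breed dogs, expanded for 14 to 20 days in IL-2 (2500 IU/mL) and 2-mercaptoethanol (50 µM), from which CD8+ T cells were purified. Each dog gave 1 control library (the PBS vehicle) and 1 exosome library, the vesicles being those shed by CLBL-1 cells, a lymphoma line of canine B cells (diffuse large cell type). IL-2 and 2-mercaptoethanol were common to all 4 libraries. No source used here gives the ages of the dogs.

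The series' design text gives an exosome dose of 50 µg/mL for 48 h, while the treatment label lists 50, 100 and 200 µg/mL. The columns of the first table (pair 1, by its name the female dog) are named 24 h and those of the second (pair 2, the male dog) 48 h. Dog, sex and possibly exposure time therefore cannot be told apart between the pairs. A pair holds 1 library per condition, and p-values over the 2 pairs measure only the spread between these libraries. Recovered reads ranged from 9417298 to 12325953 per library over the shared genes.

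The unfolded protein response senses misfolded protein in the ER through 3 membrane proteins: the kinase and nuclease IRE1 (gene ERN1), the kinase PERK (gene EIF2AK3) and the transcription factor precursor ATF6. IRE1 splices the messenger of XBP1 into the form that encodes an active transcription factor, cleaved ATF6 enters the nucleus, and PERK phosphorylates the initiation factor eIF2 alpha, which favours translation of ATF4. XBP1 and ATF6 raise chaperones, disulfide isomerases and the machinery of ER-associated degradation, and T cells use the IRE1 and XBP1 branch during effector differentiation. Counts per gene do not separate spliced from unspliced XBP1, nor cleaved from full-length ATF6, so only messenger level is described.

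Values below are the scaled read counts of the authors' deposited tables, 1 library each. They can be compared between libraries for 1 gene but not between genes, because they are not corrected for transcript length. Each table carries its own scaling, so that levels set across the pairs are less sure than those within a pair. In bulk RNA a change in the share of cells of a type and a change in RNA per cell cannot be told apart. No gene of the set passed the test over both pairs (limma on log2(scaled count + 1) with the pair as a block, adjusted p from 0.223 for HERPUD1 to 0.986 for CANX), against 0.744% of all genes called in either direction (0.248% higher and 0.496% lower). With no adjustment, 1 of the 10 (HERPUD1) had a p under 0.05, against 15.9% of all genes. The pairs differed: in pair 1 the exosome library had the higher value for 9 of 10 genes (against 48.2% of all genes), led by HERPUD1 at 2.69-fold, and in pair 2 for 4 of 10 (against 47.1%), with CALR 1.79-fold lower. Scaled to the recovered totals, these counts were 8 and 5 (against 45.2% and 55.6% of all genes), and with TMM factors 8 and 4 (against 47.1% and 50.5%). ERN1 was 1.40-fold higher in pair 1 and 1.28-fold higher in pair 2.

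**Figure D1:**
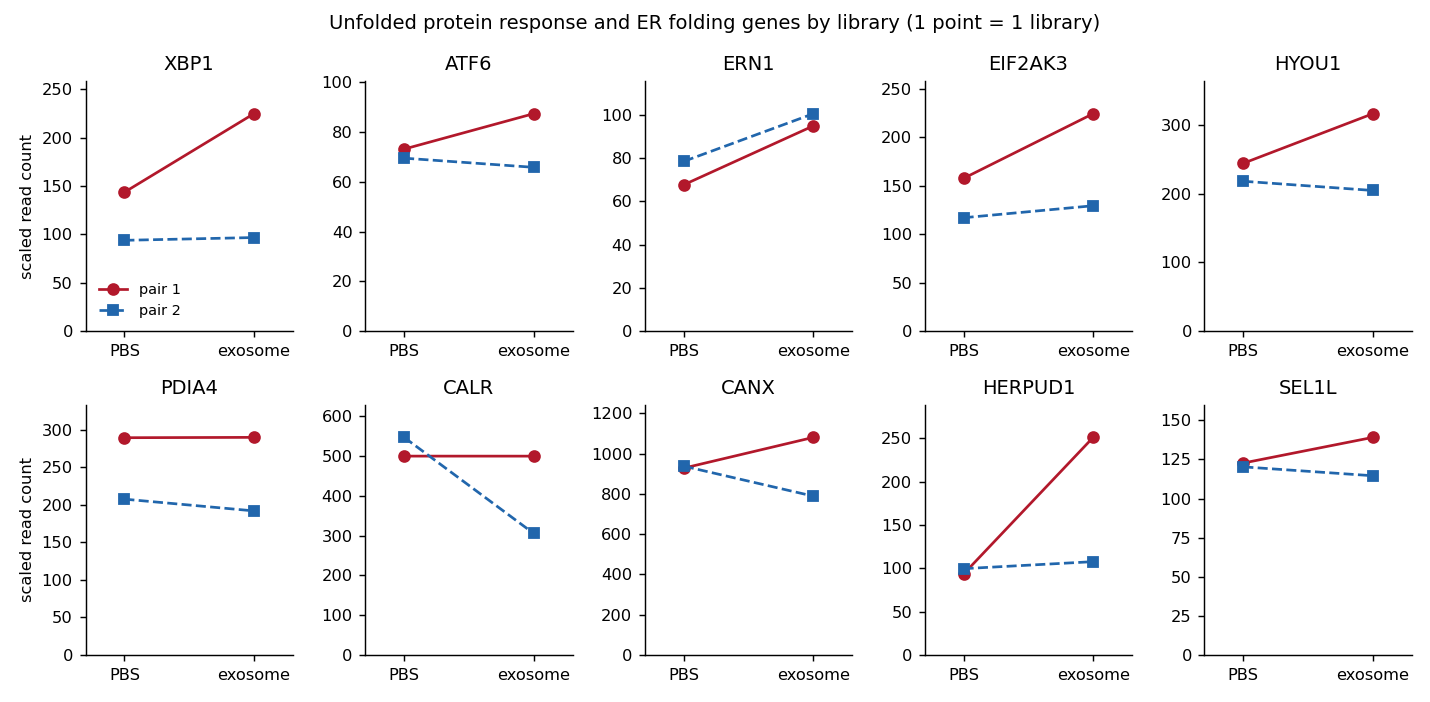
Scaled read count (vertical axis, starting at 0 in each panel) of each gene in the PBS and exosome libraries of pair 1 (red circles, solid line) and pair 2 (blue squares, dashed line); each point is 1 library. HERPUD1 stood at 93.5 and 99.6 in the PBS libraries and at 251 and 108 in the exosome libraries, and CALR was apart from its other values only in the exosome library of pair 2, at 306.

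Among the sensors, ERN1 stood at 67.7 with PBS and 94.96 with exosomes in pair 1, against 78.5 and 101 in pair 2. Both exosome libraries lay above both PBS libraries, an order that 12.9% of all genes shared. Its fitted log2 fold was 0.42 ± 0.23 (SE, adjusted p = 0.41 by limma), so the difference did not pass the test. The SE of such fits is limma's moderated one, which rests on 1 residual and 11.4 prior degrees of freedom and therefore mostly on the variances of all genes.

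EIF2AK3, the PERK kinase, stood at 158 and 224 in the PBS and exosome libraries of pair 1. In pair 2 it stood at 117 and 129. The exosome library was higher in each pair, but the groups overlapped, because the PBS value of pair 1 exceeded the exosome value of pair 2. EIF2AK3 had a fitted log2 fold of 0.32 ± 0.23 (adjusted p = 0.569 by limma). With the exosome library of pair 1 left out the log2 fold was -0.07. That fit, like all others with a library left out, has no pair block. It sets the exosome library of pair 2 against the PBS libraries of both pairs, so differences between the pairs enter it.

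ATF6 stood at 73.1 with PBS and 87.3 with exosomes in pair 1, against 69.4 and 65.7 in pair 2. The exosome library was the highest of the 4 in pair 1 and the lowest in pair 2. After scaling to the recovered totals the difference in pair 2 was -0.0010 on the log2 scale. Over both pairs the log2 fold was 0.09 ± 0.23 (adjusted p = 0.911 by limma), and it was -0.11 without the exosome library of pair 1.

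XBP1, the transcription factor downstream of IRE1, stood at 144 with PBS and 225 with exosomes in pair 1. In pair 2 it stood at 93.9 and 96.8. Only the exosome library of pair 1 was set apart from its own control: the within-pair ratio was 1.57 (exact 95% interval 1.47 to 1.67) in pair 1 and 1.03 (0.945 to 1.12) in pair 2. These intervals, and all others given for ratios of 2 libraries, cover counting error only. Between the control libraries of the pairs, whose tables were scaled separately, XBP1 was lower in pair 2 by a log2 difference of -0.61. XBP1 had a fitted log2 fold of 0.34 ± 0.24 (adjusted p = 0.561 by limma). The fold was -0.26 when the exosome library of pair 1 was left out, a fit without the pair block that takes in this difference between the controls.

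**Figure D2:**
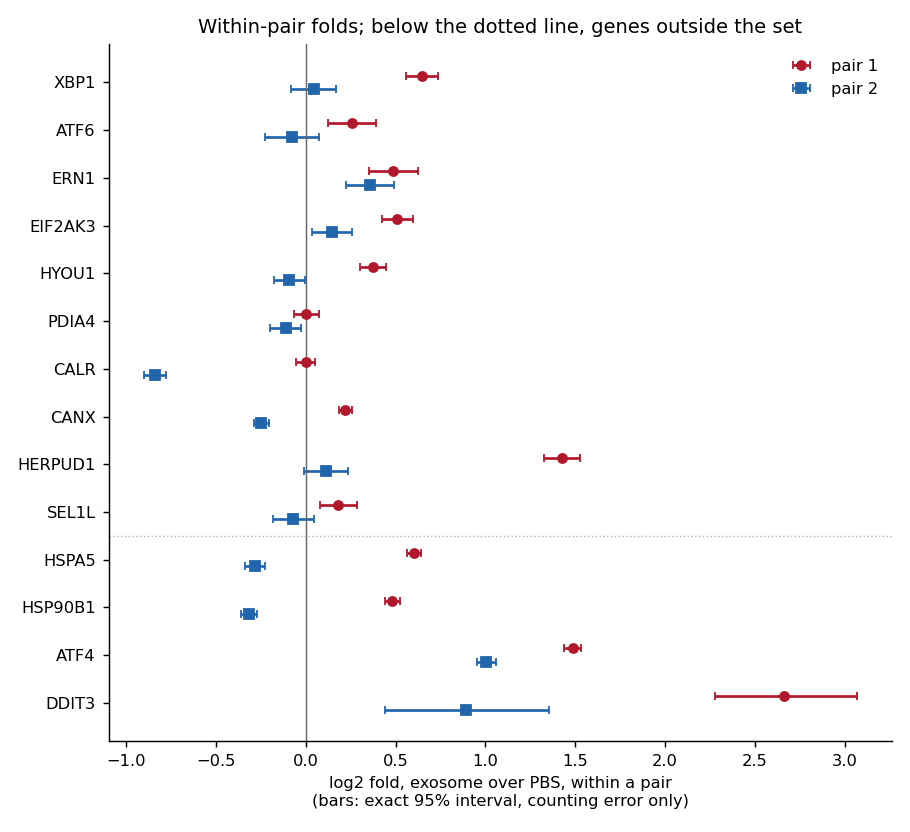
Log2 fold of exosome over PBS within pair 1 (red circles) and pair 2 (blue squares) for the 10 genes and, below the dotted line, 4 other genes of the pathway; bars are exact 95% intervals for counting error. Intervals of ERN1 overlap between the pairs, those of HERPUD1 and CALR do not, and HSPA5, HSP90B1 and CANX lie on opposite sides of 0.

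HERPUD1, a membrane protein that brings ubiquitin ligase complexes of ER-associated degradation together, had the highest ratio of the 10 genes in pair 1, while in pair 2 ERN1 and EIF2AK3 had higher ones. It stood at 93.5 with PBS and 251 with exosomes in pair 1, against 99.6 and 108 in pair 2. The PBS libraries were close to each other, 0.09 apart on the log2 scale, and both exosome libraries were above them. The ratio was 2.69 (2.51 to 2.88) in pair 1, where 1.90% of all genes had a higher one, and 1.08 (0.994 to 1.18) in pair 2, where 36.1% did. Its log2 fold over both pairs was 0.76 ± 0.29 (adjusted p = 0.223 by limma). It passed when genes with a mean scaled count under 20 were left out first (adjusted p = 0.0133, with 8.47% of 7122 genes called) and with a pseudocount of 5 (adjusted p = 0.0465, with 5.22% of all genes called). Over all alternatives with the pair block, adjusted p ran from 0.0133 to 0.424 (limma, edgeR, DESeq2 and voom). Without the exosome library of pair 1 the log2 fold was 0.16, and without that of pair 2 it was 1.37.

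SEL1L, the adaptor of the ligase HRD1 in the same degradation route, stood at 123 and 139 in pair 1. In pair 2 it stood at 120 and 115. Its 4 values lay close together and the groups overlapped. SEL1L had a fitted log2 fold of 0.06 ± 0.23 (adjusted p = 0.948 by limma), and -0.08 without the exosome library of pair 1. The direction in pair 2 depends on scaling, since after scaling to the recovered totals SEL1L was higher there by 0.0076 on the log2 scale.

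Among the lumenal chaperones, HYOU1, a large HSP70-type nucleotide exchange factor for BiP, stood at 244 and 316 in pair 1. In pair 2 it stood at 218 and 205. The exosome library of pair 1 was the highest and that of pair 2 the lowest of the 4. After scaling to the recovered totals the difference within pair 2 was -0.014 on the log2 scale. HYOU1 had a fitted log2 fold of 0.14 ± 0.24 (adjusted p = 0.849 by limma), and -0.17 without the exosome library of pair 1.

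PDIA4, a disulfide isomerase with the alternative name ERp72, stood at 289.7 with PBS and 290.1 with exosomes in pair 1, against 208 and 192 in pair 2. The libraries of a pair lay close together, and both libraries of pair 2 were below both of pair 1. The ratio was 1.00 (0.954 to 1.05) in pair 1 and 0.925 (0.871 to 0.982) in pair 2. PDIA4 had a fitted log2 fold of -0.06 ± 0.23 (adjusted p = 0.947 by limma), and with each library left out in turn it ran from -0.35 to 0.24.

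CALR and CANX encode calreticulin and calnexin, the soluble and the membrane-bound lectin chaperones that hold newly made glycoproteins during folding. CALR stood at 500.1 in both libraries of pair 1, and at 547 with PBS and 306 with exosomes in pair 2. Both exosome libraries were below both PBS libraries, as for 14.3% of all genes, but in pair 1 by a margin far within counting error. The ratio was 1.000 (0.963 to 1.04) in pair 1 and 0.558 (0.536 to 0.582) in pair 2. The fitted log2 fold of CALR was -0.42 ± 0.26 (adjusted p = 0.48 by limma). It was -0.77 without the exosome library of pair 1 and -0.07 without that of pair 2.

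CANX stood at 928 with PBS and 1081 with exosomes in pair 1, against 938 and 789 in pair 2. The PBS libraries nearly coincided and the exosome libraries lay on either side of them. CANX had a fitted log2 fold of -0.02 ± 0.24 (adjusted p = 0.986 by limma), and 0.0057 after scaling to the recovered totals, so no direction can be given for CANX over both pairs.

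**Figure D3:**
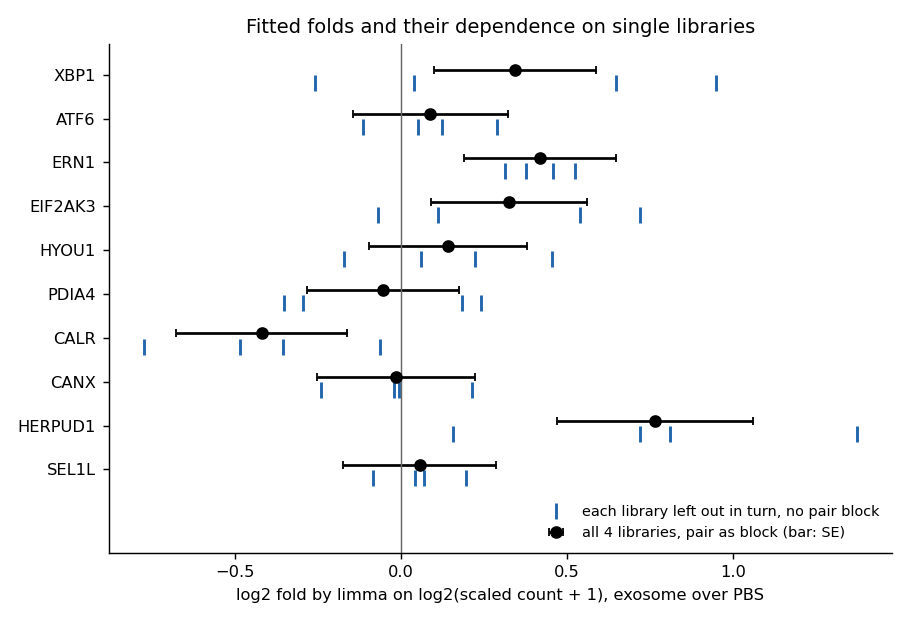
Log2 fold of exosome over PBS fitted by limma for the 10 genes (black circles with SE, all 4 libraries, pair as a block) and the same fold with each library left out in turn (blue ticks, no pair block). All ticks of ERN1 and HERPUD1 lie above 0 and all of CALR below 0, and the ticks of HERPUD1 run from 0.16 to 1.37.

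Within a pair there is 1 library per condition, so the next counts describe libraries and have no replicate check. In pair 1, 8 of 10 ratios had a counting interval above no change and 0 below, against 29.1% and 30.4% of all genes. In pair 2, 2 were above (ERN1 and EIF2AK3) and 4 below (PDIA4, HYOU1, CALR and CANX), against 22.3% and 28.3%. Both with TMM factors and with scaling to the recovered totals, pair 2 gave 3 above and 2 below. The 10 genes are well expressed, so these shares were also taken over the 4382 genes with a mean scaled count of at least 50, a limit set after the values were seen. They were 44.6% above and 33.1% below in pair 1, and 27.1% and 41.2% in pair 2. Shares by direction alone, such as those set beside the counts of genes higher in a pair, were not taken over the 4382. For the 10 genes the median log2 fold was 0.31 in pair 1, beside 0.06 over those 4382 genes. In pair 2 the medians were -0.07 and -0.05, the first of which was 0.0033 after scaling to the recovered totals.

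At 1.5-fold, HERPUD1 and XBP1 were higher in pair 1 and 0 of the 10 genes were lower, where 10.8% of all genes were higher and 17.5% lower. In pair 2, CALR was lower and 0 were higher, where 10.1% of all genes were lower and 9.29% higher. Over the 4382 genes at higher counts, 9.27% were higher in pair 1 and 5.75% lower in pair 2. The same 3 genes met the criteria of the authors' deposited tables, which were 1.5-fold and an unadjusted p under 0.05 by DEGseq, a test of 1 library against 1. In the authors' deposited table of pair 1 the p-values were 2.21e-17 for HERPUD1 and 4.82e-05 for XBP1, and 5.25% of that table's genes met the criteria upward and 6.49% downward. In the authors' deposited table of pair 2 the p-value of CALR was 4.29e-13, and 2.95% of that table's genes met them downward and 1.99% upward. Those p-values compare libraries and not conditions.

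The fold of pair 1 exceeded that of pair 2 for each of the 10 genes. Counting error alone does not cover this difference for 9 of them, ERN1 being the exception, against 25.9% of all genes and 44.2% of the 4382 genes at higher counts. A lower fold in pair 1, beyond counting error, was found for 0 of the 10 genes, 23.1% of all genes and 24.7% of the 4382. The count of 9 was 7 after scaling to the recovered totals, where it held neither PDIA4 nor SEL1L and the shares of all genes were 19.0% above and 30.4% below. With TMM factors it was 8, without PDIA4, beside 23.0% and 25.9%. These scalings of the difference were added after the data were seen. The difference was 1.31 on the log2 scale for HERPUD1 (1.16 to 1.47), 0.84 for CALR (0.76 to 0.92) and 0.60 for XBP1 (0.45 to 0.76). It was 0.13 for ERN1 (-0.06 to 0.32). Whether the pairs differ beyond the spread between cultures was not tested, because a fit with that term leaves no residual degree of freedom. The genes' summed scaled count was 2621 and 3210 in pair 1 and 2490 and 2106 in pair 2, and the PBS libraries were nearer to each other than the exosome libraries.

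**Figure D4:**
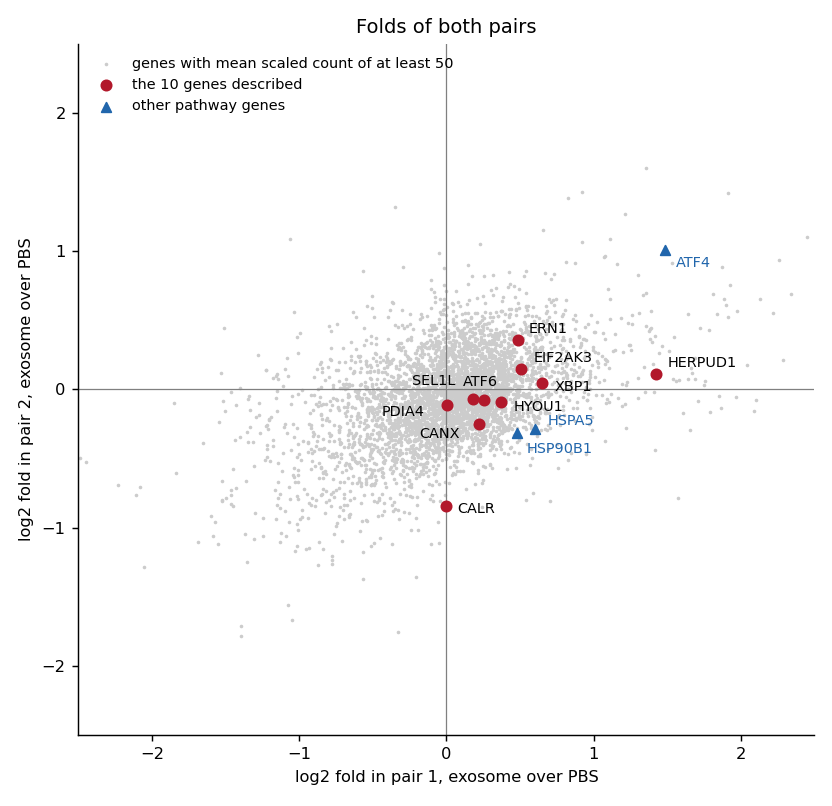
Log2 fold of exosome over PBS in pair 1 (horizontal) against pair 2 (vertical) for the 10 genes (red circles), 3 other genes of the pathway (blue triangles) and genes with a mean scaled count of at least 50 (grey, of which 6 lie outside the axes). HERPUD1 lies far right near the horizontal line, CALR far below on the vertical line, and ERN1 in the quadrant that is positive for both pairs, towards ATF4.

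Other genes of the pathway were grouped into 8 lists by role, with 117 of 124 listed genes measured. Of these, 2 were called, both higher and both in the PERK and ATF4 branch. Over all genes 0.744% were called, and 0.248% were called higher. ATF4, the transcription factor whose translation PERK and other kinases of eIF2 alpha favour, rose from 395 with PBS to 1105 with exosomes in pair 1, and in pair 2 the values were 394 and 792 (log2 fold 1.24 ± 0.24, adjusted p = 0.0403 by limma). DDIT3, its target CHOP, rose from 5.18 to 32.8 and from 6.16 to 11.4 (log2 fold 1.62 ± 0.33, adjusted p = 0.0453 by limma). Both calls depend on the test: edgeR and voom on recovered reads called neither, and neither did limma without the pair block, with TMM factors, with a pseudocount of 0.1 or after scaling to the recovered totals, whereas DESeq2 called both.

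The other genes of that branch did not pass the test over both pairs. TRIB3, a pseudokinase that ATF4 induces, had values of 1.26 with PBS and 8.19 with exosomes in pair 1, against 2.02 and 3.93 in pair 2 (adjusted p = 0.0526 by limma). PPP1R15A, the GADD34 subunit that directs dephosphorylation of eIF2 alpha, stood at 16.4 and 34.1 and then at 12.2 and 24.3 (adjusted p = 0.0621 by limma). With a pseudocount of 5, limma called PPP1R15A (adjusted p = 0.00805) and TRIB3 (adjusted p = 0.0314). With a mean scaled count of at least 20 it called PPP1R15A (adjusted p = 0.000537). Of the 10 measured members 7 were higher in both pairs, against 27.8% of all genes. Over the 10, the median log2 folds were 1.19 (pair 1) and 0.93 (pair 2), beside -0.02 and -0.03 over all genes. Among the 7, TRIB3, ASNS and ATF3 rest on low counts, with 16, 6 and 3 reads in the PBS library of pair 1. ASNS had 1 read in that of pair 2. CEBPB, also at low counts, SESN2 and PPP1R15B were each higher in only 1 pair. EIF2AK3 itself, the kinase of this branch, had within-pair log2 folds of 0.51 and 0.14.

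Of 13 ER chaperones 0 were called. Their medians were 0.48 (pair 1) and -0.23 (pair 2), and 7 were higher in pair 1 and lower in pair 2, against 20.4% of all genes. HSPA5, the chaperone BiP that binds the sensors, had values of 689 and 1046 in pair 1, against 548 and 450 in pair 2 (adjusted p = 0.843 by limma). HSP90B1, the ER form of HSP90 also called GRP94, stood at 677 and 945 and then at 803 and 645 (adjusted p = 0.926 by limma). Both had the pattern of HYOU1 and CANX, higher in 1 pair and lower in the other. After scaling to the recovered totals the log2 folds in pair 2 were -0.21 for HSPA5 and -0.24 for HSP90B1. They were -0.17 for CANX and only -0.014 for HYOU1. DNAJB9, a cochaperone that in mammals is a target of XBP1, had values of 42.8 and 88.9 in pair 1, against 23.6 and 28.2 in pair 2. HSPA13 stood at 67.3 and 123 and then at 55.3 and 47.2, SDF2L1 at 33.1 and 28.4 and then at 20.2 and 17.5, and DNAJC1 at 65.9 and 82.4 and then at 44.9 and 47.4.

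Among 16 disulfide isomerases and oxidases 0 were called and the medians were 0.08 and -0.13. PDIA5, an isomerase, had values of 6.36 and 18.7 in pair 1, against 19.7 and 34.9 in pair 2 (adjusted p = 0.0548 by limma). ERP29, a lumenal protein with an isomerase-like fold, stood at 27.6 and 13.2 and then at 36.8 and 20.4 (adjusted p = 0.07 by limma). The exosome library was higher in both pairs for PDIA5 and lower in both for ERP29. PRDX4, an ER peroxiredoxin, stood at 79.1 and 76.8 and then at 140.4 and 80.4, and TXNDC11 at 124 and 199.8 and then at 190 and 187.

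Of 21 genes of ER-associated degradation, the route of HERPUD1 and SEL1L, 0 were called. The exosome library was higher for 16 in pair 1 and for 11 in pair 2, against 48.2% and 47.1% of all genes, with medians of 0.21 and 0.00. After scaling to the recovered totals the counts were again 16 and 11, against 45.2% and 55.6% of all genes. The medians were then 0.18 and 0.08. EDEM1, a lectin-like mannosidase of this route, had values of 312 and 466 in pair 1, against 376 and 408 in pair 2. SYVN1, the ligase HRD1 that SEL1L serves, stood at 122 and 158 and then at 91.8 and 104.5. UBXN4, with 235 and 324 and then 211 and 241, and ERLEC1, with 123 and 176 and then 101 and 105, were likewise higher in both pairs by amounts that did not pass the test (adjusted p = 0.56 and 0.643 by limma). No degradation gene reached the 2.69-fold ratio of HERPUD1 in pair 1, where the list's highest log2 fold was 0.68.

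**Figure D5:**
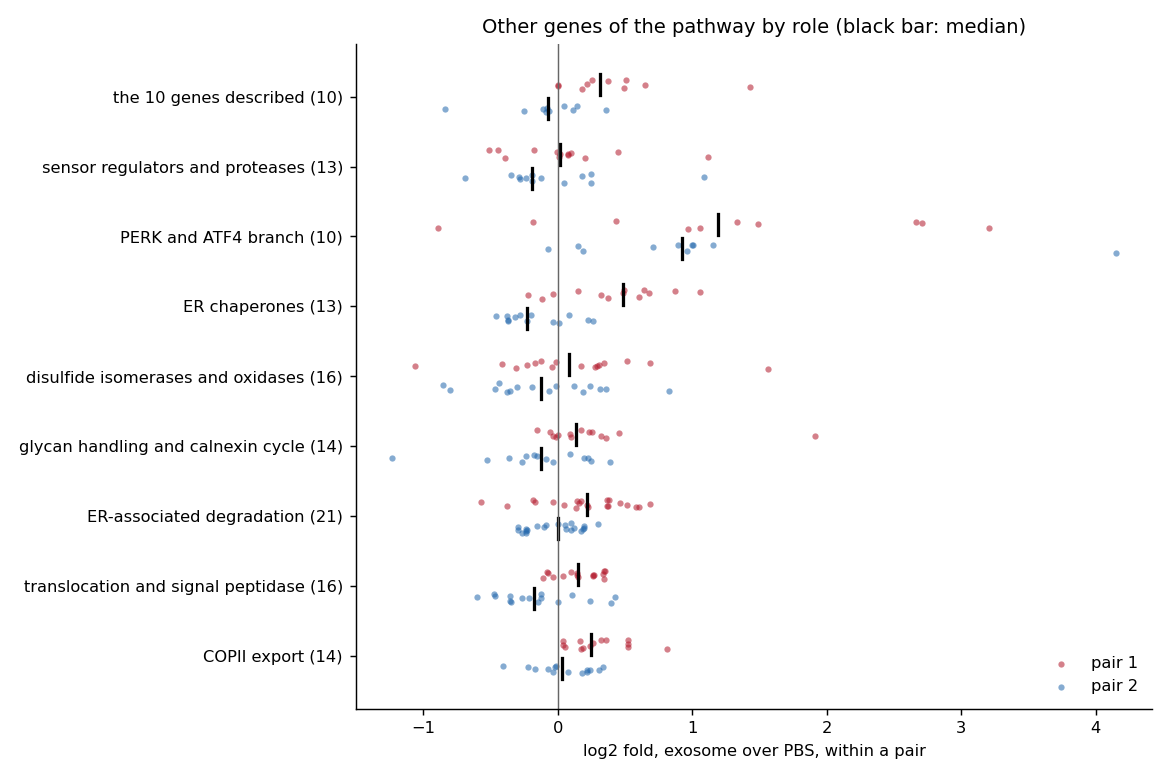
Log2 fold of exosome over PBS within pair 1 (red) and pair 2 (blue) for the 10 genes and for each of 8 lists of other pathway genes, with the number measured in parentheses; each point is 1 gene and black bars are medians. In the PERK and ATF4 branch the medians of both pairs are above 0 (1.19 and 0.93), and among ER chaperones they are 0.48 and -0.23.

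The 14 genes of glycan handling and the calnexin cycle had 0 calls, with medians of 0.13 and -0.12. GANAB, the catalytic subunit of glucosidase II that prepares glycans for calnexin and calreticulin, had values of 215 and 275 in pair 1, against 179 and 234 in pair 2. Both exosome libraries of GANAB were above both PBS libraries, whereas CANX and CALR were lower in pair 2. OSTC stood at 78.5 and 107.8 and then at 42.2 and 45.0, DDOST at 261 and 311 and then at 173 and 203, and UGGT2, a glucosyltransferase, at 2.83 and 10.7 and then at 10.2 and 4.33.

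For translocation and signal peptidase, 0 of 16 were called and the medians were 0.15 and -0.18. SSR3 and SSR2, subunits of the translocon-associated complex, had log2 folds of 0.34 and 0.15 in pair 1 and 0.39 and 0.42 in pair 2. SPCS3, a signal peptidase subunit, and SRPRB, a subunit of the signal recognition particle receptor, had folds of -0.08 and -0.04 in pair 1 and of -0.61 and -0.47 in pair 2. Of 14 genes of COPII export, the coat that carries folded cargo out of the ER, 0 were called, while 14 were higher in pair 1 and 7 in pair 2, with medians of 0.25 and 0.03. Over all genes the shares were 48.2% and 47.1%. The COPII counts were 13 and 11 after scaling to the recovered totals, against 45.2% and 55.6% of all genes, and 14 and 9 with TMM factors, against 47.1% and 50.5%. SEC24A stood at 61.8 and 109 and then at 85.4 and 99.3, SEC24D at 51.7 and 74.4 and then at 48.6 and 60.0, SEC16A at 340 and 407 and then at 283 and 358, and SEC24B at 143 and 205 and then at 132 and 130.

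Of 13 regulators and proteases of the sensors 0 were called, with medians of 0.02 and -0.19, the first of which was -0.02 after scaling to the recovered totals. WFS1, an ER membrane protein that restrains ATF6 signalling, had values of 46.9 and 102 in pair 1, against 23.6 and 50.1 in pair 2 (adjusted p = 0.0526 by limma). Both exosome libraries of WFS1 were above both PBS libraries. DESeq2 on recovered reads called it (adjusted p = 0.00742). So did limma with a mean scaled count of at least 20 (adjusted p = 0.000123) and with a pseudocount of 5 (adjusted p = 0.00173). The other alternatives with the pair block did not call WFS1. EIF2S1, which encodes the eIF2 alpha that PERK phosphorylates, stood at 73.1 and 51.2 and then at 109 and 67.4 (adjusted p = 0.224 by limma), with both exosome libraries below. TMBIM6, which restrains IRE1, stood at 836 and 634 and then at 828 and 725, and CREB3 at 55.6 and 40.8 and then at 63.4 and 58.0.

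The T cell genes were present in every library. CD8A had values of 385 and 286 in pair 1, against 488 and 453 in pair 2. CD3E stood at 675 and 530, against 873 and 750, and CD3G at 255 and 206, against 284 and 258. CD8B, CD3D and CD2 differed more between the pairs. CD8B stood at 73.4 and 72.7, against 479 and 528, and CD3D at 91.7 and 65.4, against 221 and 218. CD2 stood at 352 and 344, against 822 and 808. Among CD4 T cell markers, CD4 was at 3.22 to 11.6 and CD40LG at 25.7 to 48.8. CCR4 stood at 13.5 and 5.33, against 5.52 and 7.24, and CCR6 at 0.157 and 0.197, against 41.1 and 40.3. Plasma cells carry high levels of XBP1 and its targets, so their markers were set beside the folds. Of 8 listed plasma cell markers 4 were measured, and their summed scaled count was 206 and 318 in pair 1 and 107 and 112 in pair 2. PRDM1, which effector T cells also express, made up most of that sum, at 128 and 270 and then at 55.4 and 64.6, whereas JCHAIN stood at 15.1 and 18.5 and then at 26.1 and 25.7. IRF4 stood at 62.2 and 25.9 and then at 24.7 and 20.7. TNFRSF17, at low counts, stood at 0.628 and 2.86 (8 and 29 reads) and then at 1.06 and 1.10 (10 and 14 reads). Summed B cell markers (5 of 10, MS4A1 at 3.62 to 10.7) were at 34.9 and 18.7 in pair 1, against 11.1 and 8.57 in pair 2, leaving out CD79A, which shares its row with the ribosomal gene RPS19. Summed monocyte markers (2 of 8, CD68 and FCER1G) were at 136 and 183, against 22.2 and 16.4. ITGAM was left out of that sum because its row is shared with ITGAX and ITGAD, and that row went the other way in each pair, at 640 and 383, against 52.5 and 72.8. Summed dendritic cell markers (2 of 5) were at 34.8 and 21.8, against 4.56 and 6.21. FLT3 was left out of that sum because its row is shared with URAD. That row was higher with exosomes in both pairs, at 3.45 and 23.6, against 0.106 and 0.708 (1 and 9 reads). Summed NK cell markers (2 of 4) were at 80.0 and 20.5, against 142.6 and 94.5. MMP9, the 1 neutrophil marker of 5 with a row of its own, fell from 439 to 146 and from 171 to 81.6 (adjusted p = 0.0326 by limma) and was the only marker called. ITGB3, the 1 platelet marker of 6 measured, stood at 4.002 and 27.1, against 0.106 and 0.472. The part of other cells in the folds of XBP1 and HERPUD1 was not tested.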

How the data were processed

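The authors deposited 1 table per pair, in which DEGseq compared 1 exosome with 1 control library, per the file headers. Per their log, 30951 genes were reduced to 11838, and outlier removal took out a further 89 (pair 1) or 58 (pair 2). The submitters' processing notes name Trimmomatic 0.38, HISAT2 2.1.0, featureCounts 1.6.0 and CanFam3.1. No source used here says whether strand was used in counting. Expression columns in the authors' tables hold a signal: reads per gene over a library-wide factor. Their mean column, a score that averages the pair, and their log2 fold changes (exosome over control) are also the authors' values, as are the deposited p-values, which set single libraries against each other. Every value (100%) was a whole multiple of its column's smallest within 0.001, and reads were recovered from that.

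limma 3.58.1 (R 4.3.3) was fitted to log2(scaled count + 1) of all 11691 shared genes, with the pair as a block because each deposited table sets its own columns against each other, and genes were called at a Benjamini-Hochberg adjusted p of 0.05. This scale understates the folds of low genes. Libraries of the same pair deviated together from their group means (correlation 0.818, which 2 pairs share by construction). edgeR 4.0.16, DESeq2 1.42.0 and voom on the recovered reads were alternatives. Ratios within a pair carry exact 95% intervals (Clopper-Pearson), and differences between the pairs' log2 ratios carry normal 95% intervals from the reads. The scripts were tested on simulated counts. Of 124 listed symbols 117 matched a row, and 3 of these rows carry several symbols and are uncertain. From each list the text names the called genes and then the largest absolute folds, 4 genes in all, if the higher library of both pairs held 50 reads or more. HSPA5, HSP90B1, ATF4, DDIT3, CD8A, CD3E, CD4 and MS4A1 are always named, and further marker genes were named after their values were seen. Members and lists were chosen with earlier results of these data known.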

Additional observations from a re-analysis of the deposited data

Results flagged for a closer look

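For 5 of the 10 genes the exosome library was higher in pair 1 and lower in pair 2, against 20.4% of all genes. This share was not taken over the 4382 genes with a mean scaled count of at least 50. Their median log2 folds were 0.06 in pair 1 and -0.05 in pair 2. The pairs differ in dog and possibly in exposure time. The difference between the folds of the pairs was not tested. It came to 0.47 on the log2 scale for CANX, 0.46 for HYOU1, 0.33 for ATF6, 0.25 for SEL1L and 0.12 for PDIA4. After scaling to the recovered totals it was 0.36, 0.35, 0.22, 0.14 and 0.0022 in that order. The same opposite directions appeared among the other genes named, with differences of 0.89 for HSPA5, 0.80 for HSP90B1, 1.10 for HSPA13, 0.70 for TXNDC11, 0.55 for SEC24B and 3.15 for UGGT2, which rests on low counts. With the recovered totals opposite directions were found for 3 of the 10 genes, against 14.4% of all genes, and with TMM factors for 4, against 18.0%. In pair 2 the order of SEL1L (0.0076), TXNDC11 (0.06) and SEC24B (0.05) turned to higher with the recovered totals, and so did that of TXNDC11 (0.01) and SEC24B (0.0049) with TMM factors. In pair 1 PDIA4 turned to lower with both (-0.03 and -0.01).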

How the results depend on the processing

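Over all shared genes limma called 87, with 29 higher and 58 lower. It called 610 with a pseudocount of 5, 603 with a mean scaled count of at least 20, 0 with a pseudocount of 0.1, 0 with recovered totals, 0 with TMM factors and 0 without the pair block. On recovered reads edgeR called 0 and voom 0, with 1640 and 1738 genes at an unadjusted p under 0.05, while DESeq2 called 169. Of the 10 genes 0 were called, except 1 (HERPUD1) with a pseudocount of 5 or a mean of at least 20. Of the other pathway genes 2 were called, against 0.744% of all genes. This became 7 with a pseudocount of 5, against 5.22% of all genes. They were WFS1, ATF4, DDIT3, PPP1R15A, TRIB3 and PDIA5 (higher) and ERP29 (lower). With a mean of at least 20 it was 5 of 107, against 8.47% of 7122 genes. They were WFS1, ATF4, PPP1R15A and DNAJB9 (higher) and ERP29 (lower). DESeq2 called 3, namely WFS1, ATF4 and DDIT3. The count was 0 with a pseudocount of 0.1, recovered totals, TMM factors, edgeR, voom or no pair block. With 1 library left out, 3 remain, and a block would leave no residual degree of freedom, so these fits had none. Each such fold sets the lone library of a group against the mean of both libraries of the other group. Differences between the pairs therefore enter it. The lone library is then assumed to vary like the others. Under these fits log2 folds ran from -0.26 to 0.95 for XBP1, -0.11 to 0.29 for ATF6, -0.07 (-0.0697) to 0.72 for EIF2AK3, -0.35 to 0.24 for PDIA4, -0.17 to 0.45 for HYOU1, -0.24 to 0.21 for CANX and -0.08 (-0.0837) to 0.19 for SEL1L, all crossing 0. CANX turned to 0.0057 with recovered totals. The cause of the changes in the counts called was not tested. Removing the replicate block called 0 of the 10 genes. Their fitted log2 folds stay the same by construction, because each pair holds both conditions. Within pairs, 58 of 60 alternative folds stayed inside their counting interval. The others, with recovered totals in pair 2, were -0.76 for CALR and -0.17 for CANX. New scaling factors shift all folds of a pair alike, so this count reflects mainly the width of the intervals and is no check of the folds. Depth over genes that the authors removed is unknown. Searches of promoters and protein tails were not run.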
